A study of Mus musculus with 6 samples.

Results

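Chromatin that was accessible in touch dome and interfollicular keratinocytes and had no accessible peak in follicle cells comprised 4941 of 75738 consensus regions (6.52%) in mouse back skin. A consensus region is a stretch in which peaks of any of the 6 deposited peak lists overlap by at least 1 bp. The 4941 regions are those with a peak in both touch dome (TD) libraries and both interfollicular epidermis (IFE) libraries and in neither hair follicle (HF) library. They were chosen by these peak calls, so the presence of TD and IFE peaks and the absence of HF peaks describe the choice and are not findings.

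Accessibility was measured by ATAC-seq, in which a transposase inserts sequencing adapters into open DNA, with 2 libraries for each of the 3 cell populations. All mice were C57BL/6 and carried TNC-CREER, a tamoxifen-activated Cre recombinase named for Tnc, which encodes the extracellular matrix protein tenascin-C, and tdTomato as its fluorescent reporter. Every mouse was given tamoxifen, 100 µg for each gram of weight, at 51 and again at 52 days of age, and back skin was taken at 60 days. Every population was positive for EPCAM and integrin α6. TD cells were in addition positive for SCA1 and tdTomato, IFE cells were positive for SCA1 and negative for tdTomato, and HF cells were negative for both. The reporter marks cells by Tnc-driven Cre activity and not by their place in the skin, and the HF gate takes only follicle cells without SCA1. Since SCA1 alone of the antibody markers parts TD and IFE from HF, the regions follow that gate as well as the tissue. Whether replicates are different animals is not stated in the labels, and their spread could be purely technical.

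The interfollicular epidermis is the stratified sheet that keeps water in and microbes out. Its basal keratinocytes divide and then move outward, build a cornified envelope by transglutaminase crosslinking, and release cytokines that reach immune cells in the skin. Touch domes are small specialised patches of this epithelium that lie beside guard hairs and hold Merkel cells, the mechanosensory cells of light touch. ATAC-seq peaks lie both at gene starts and at distal elements, and distal elements usually differ more between related cell types than gene starts do.

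Only a minority of these regions lay at an annotated gene start, but those starts show which genes had their own start in this class. A table of RefSeq promoter windows on GRCm38.p6, the assembly behind mm10, gave 166 windows of 152 genes, 82 of them protein coding, that overlap a region of the class. A start is counted in the class where its window, from 250 bases before to 50 after it, overlaps such a region. The start base itself can then lie outside the region. The table holds 17492 of 21900 protein-coding genes, so it is not complete. The 250 bases before the start are printed 5′ to 3′ on the gene's strand, in lower case, with letters in capitals where the AP-1 motif TGANTCA or the TCF/LEF motif CTTTGAA occurs on either strand. Il33, which encodes an epithelial alarmin cytokine, is shown with both of its starts, of which only the downstream start lay in a region of the class. Irf4, a transcription factor best known in lymphocytes and melanocytes, and Calm5, a calmodulin-like protein gene, are shown because their annotated starts lay in the class. Skint6, Skint10 and Skint11 are shown as 3 members of one gene family with such starts. Mmp3, which encodes the matrix protease stromelysin, carries the AP-1 letters, and Ncoa7 and Pdzrn4 carry the TCF/LEF letters.
Il33, downstream start (chr19:29945540-29945789, plus strand): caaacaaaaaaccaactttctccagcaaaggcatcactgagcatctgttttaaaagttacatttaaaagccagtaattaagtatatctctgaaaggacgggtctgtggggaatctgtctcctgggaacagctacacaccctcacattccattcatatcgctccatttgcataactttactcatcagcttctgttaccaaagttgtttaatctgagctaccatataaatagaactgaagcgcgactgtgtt
Il33, upstream start (chr19:29924863-29925112, plus strand): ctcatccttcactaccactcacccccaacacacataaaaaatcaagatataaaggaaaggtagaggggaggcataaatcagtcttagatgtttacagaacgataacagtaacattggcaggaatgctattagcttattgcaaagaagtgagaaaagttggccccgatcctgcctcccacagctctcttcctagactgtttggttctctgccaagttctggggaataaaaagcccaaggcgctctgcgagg
Irf4 (chr13:30748983-30749232, plus strand): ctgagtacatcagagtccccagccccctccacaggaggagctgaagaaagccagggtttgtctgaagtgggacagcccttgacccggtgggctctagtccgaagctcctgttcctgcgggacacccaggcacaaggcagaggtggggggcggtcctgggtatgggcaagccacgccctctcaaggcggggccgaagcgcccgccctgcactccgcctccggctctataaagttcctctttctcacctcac
Calm5 (chr13:3853923-3854172, plus strand): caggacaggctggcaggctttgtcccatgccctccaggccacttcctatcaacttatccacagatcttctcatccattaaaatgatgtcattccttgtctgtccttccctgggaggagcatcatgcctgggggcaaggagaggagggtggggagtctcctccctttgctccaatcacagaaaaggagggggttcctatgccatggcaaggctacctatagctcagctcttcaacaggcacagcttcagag
Skint6 (chr4:113286974-113287223, minus strand): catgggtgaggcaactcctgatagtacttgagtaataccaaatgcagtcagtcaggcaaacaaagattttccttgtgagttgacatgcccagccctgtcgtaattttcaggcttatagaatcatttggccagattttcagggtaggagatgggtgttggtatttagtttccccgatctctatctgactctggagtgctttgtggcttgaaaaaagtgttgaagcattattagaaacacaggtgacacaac
Skint10 (chr4:112774862-112775111, minus strand): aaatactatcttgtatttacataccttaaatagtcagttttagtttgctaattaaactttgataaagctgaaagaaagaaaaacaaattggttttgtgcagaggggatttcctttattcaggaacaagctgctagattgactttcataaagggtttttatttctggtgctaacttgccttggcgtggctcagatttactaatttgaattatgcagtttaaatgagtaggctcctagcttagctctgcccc
Skint11 (chr4:114163134-114163383, plus strand): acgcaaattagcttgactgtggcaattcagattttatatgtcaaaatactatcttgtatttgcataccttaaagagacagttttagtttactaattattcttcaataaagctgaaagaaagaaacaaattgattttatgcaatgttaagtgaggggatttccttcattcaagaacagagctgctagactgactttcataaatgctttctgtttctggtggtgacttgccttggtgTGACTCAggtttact
Mmp3 (chr9:7445572-7445821, plus strand): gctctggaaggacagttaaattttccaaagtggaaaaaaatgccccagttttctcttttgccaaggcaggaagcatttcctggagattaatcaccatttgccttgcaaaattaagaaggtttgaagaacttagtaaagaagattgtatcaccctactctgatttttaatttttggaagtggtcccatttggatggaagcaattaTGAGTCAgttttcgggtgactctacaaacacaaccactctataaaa
Ncoa7 (chr10:30655868-30656117, minus strand): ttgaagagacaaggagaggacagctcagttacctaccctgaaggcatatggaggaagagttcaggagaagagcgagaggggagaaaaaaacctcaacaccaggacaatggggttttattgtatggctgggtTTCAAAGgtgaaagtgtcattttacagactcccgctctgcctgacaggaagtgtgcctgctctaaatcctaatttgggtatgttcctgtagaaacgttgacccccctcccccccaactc
Pdzrn4 (chr15:92396560-92396809, plus strand): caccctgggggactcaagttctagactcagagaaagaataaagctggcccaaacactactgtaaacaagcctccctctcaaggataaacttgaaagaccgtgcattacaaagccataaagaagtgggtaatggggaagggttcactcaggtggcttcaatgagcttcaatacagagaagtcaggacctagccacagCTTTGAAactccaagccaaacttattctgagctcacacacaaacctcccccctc

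The Il33 start at chr19:29945790 lay in the region chr19:29945306-29946680, where peak lengths were 1209 and 1071 bp in TD replicates 1 and 2 and 1375 and 757 bp in IFE replicates 1 and 2. In all that follows, 4 lengths for one region are in this order. The nearest HF peak was 1390 bp away. The other annotated Il33 start, at chr19:29925113, lay in a region with a peak in all 6 libraries, so the gene held both an upstream start open in every population and a downstream start without an HF peak. The Irf4 region chr13:30748672-30750567 had peaks of 1238, 1583, 1891 and 1583 bp, and the nearest HF peak was 23470 bp away. At Calm5 the region chr13:3854089-3855453 had peaks of 1089, 924, 1365 and 1109 bp with an HF peak 6220 bp away. The Mmp3 region chr9:7445414-7446285 had 740, 872, 844 and 794 bp and stood 124880 bp from the nearest HF peak. Calca, the gene of calcitonin and the neuropeptide CGRP, had a start region with 526, 824, 821 and 706 bp, and the nearest HF peak was 61586 bp from it. The shortest of all these TD and IFE peaks was 526 bp, and HF peaks were nearest at Il33 and farthest at Mmp3. Il33, Calm5 and Irf4 are named by the rule fixed for this work, and Mmp3, Calca, Ncoa7, Cldn7, Il1f5 and the other genes known only from their start windows were chosen after their values were seen.

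Of the 82 protein-coding genes with a start in the class, 12 had another annotated start in a region open in all 6 libraries: 6430548M08Rik, Hdac7, Ikbkg, Il33, Kcnip3, Lpar5, Mcf2l, Ncoa7, Neu2, Rap1gap, Shroom4 and Smim14. Hdac7 encodes a histone deacetylase and Ikbkg the regulatory subunit of the kinase that activates NF-κB. The Hdac7 region had peaks of 747, 1129, 1249 and 1177 bp, 1 of the gene's 4 listed starts lay in it, and 2 others lay in regions open in all 6 libraries. At Ikbkg 1 of 4 starts lay in the class and the other 3 were open in all 6. Starts with no such counterpart included those of Cldn7, a tight junction claudin, and Il1f5, an interleukin-36 receptor antagonist. The Cldn7 region had peaks of 1325, 1076, 1874 and 1539 bp with the nearest HF peak 13086 bp away. The Il1f5 region held both annotated starts of that gene and had 632, 1035, 1025 and 699 bp.

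The promoter windows of the class were compared with other windows for 17 short motifs, each searched on both strands over the 300 bases from 250 before to 50 after the start. The AP-1 letters TGANTCA, a palindrome bound by FOS and JUN dimers, were in 29 of 166 windows (17.5%, exact binomial 95% interval 12.0 to 24.1%), against 7.81% of all 32851 windows, 5.09% of windows at regions open in all 6 libraries and 10.6% of windows at regions with peaks in HF alone. The TCF/LEF letters CTTTGAA, recognised by the effectors of canonical Wnt signalling, were in 21 windows (12.7%), against 5.14% of all windows, 3.23% at regions open in all 6 and 1.32% at HF-alone regions. Windows without any region held the AP-1 letters in 9.31% and the TCF/LEF letters in 6.50%. GATA letters AGATAA were in 16.3% of windows of the class, 11.2% of all and 15.2% of windows without a region. The KLF/SP letters GGGCGGG stood at 12.7% against 25.6% of all windows and 48.7% of those open in all 6, and the ETS letters CCGGAAG at 3.61% against 8.86% and 18.0%. HF-alone windows (16.6% and 2.65%) and windows without a region (8.60% and 2.56%) were also far below those open in all 6 for these motifs. The GRHL letters AACCNGTT were in 6 windows (3.61%), against 2.09% of all. The p63 pattern, CATG and CATG parted by 6 bases of any kind, was in 2 windows (1.20%), against 0.712% of all. The class thus had higher shares with AP-1 and TCF/LEF letters than each of the other 4 sets of windows. The AP-1 interval of HF-alone windows, 6.18 to 16.6%, overlapped that of the class. By smaller margins the class also stood above all 4 sets for GRHL, GATA, p63, RUNX, NFI, CEBP and FOX letters. RUNX letters TGTGGTT were at 7.23% against 6.58% of windows without a region, and CEBP letters TTGCNNAA at 13.9% against 12.9%. NFI letters TTGGCA were at 19.9% against 19.2% of HF-alone windows. Low KLF/SP and ETS shares of the class were common to windows not open in all 6. No test was made of these differences. Their median GC content was 50.2%, against 52.7% in all windows and 61.7% in windows open in all 6 libraries, and the part of base composition in these shares was not tested. Windows of one gene can overlap, matches of different motifs were counted separately and can share bases, and a match shows letters and no binding. Among the 82 protein-coding genes, 9 had the AP-1 letters within 250 bases before the start: Fbp2, Ikbkg, Kcnip3, Mmp3, Neu2, Rsad2, Shroom4, Skint11 and Sucnr1. The TCF/LEF letters were there in 10 of the 82: Calca, Gm10044, Gm9, Ky, Lrrc7, Ncoa7, Oas1a, Pdzrn4, Tarm1 and Ugt1a7c. These are counts of coding genes over 250 bases, whereas the shares above are of windows of 300 bases, coding or not.

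Most of the class lay away from gene starts and ends. The share within 1 kb of either end of a protein-coding gene was 5.10% (252 of 4941 regions, 95% interval 4.50 to 5.75%), against 17.8% of all consensus regions and 32.5% of the 34250 regions open in all 6 libraries. The other classes with peaks in some populations alone were also below the share of all regions. Regions shared by TD and HF were at 3.25% (2.65 to 3.94%), HF alone at 3.87% (3.36 to 4.42%) and TD alone at 3.04% (2.00 to 4.42%), all with intervals below that of the class. IFE alone stood at 4.97% (3.66 to 6.58%) and regions shared by IFE and HF at 5.33% (2.87 to 8.94%), with intervals that overlap it. Inside a gene span lay 49.6% of the class and 57.6% of all regions. Another 19.8% (18.7 to 20.9%) had no protein-coding gene within 50 kb, against 17.1% (16.8 to 17.3%) of all regions, 17.3% (14.9 to 19.9%) of IFE-alone regions, 13.5% (9.50 to 18.5%) of regions shared by IFE and HF, 29.0% (26.0 to 32.2%) of TD-alone regions, 32.4% (30.8 to 34.1%) of the regions shared by TD and HF and 25.5% (24.4 to 26.7%) of HF-alone regions. The class was thus between these classes, more often far from genes than all regions pooled and than those open in all 6 (11.6%), and less often than regions shared by TD and HF, in TD alone or in HF alone. The intervals cover counting error only, and regions of one locus are not independent. The annotated microRNA hairpins of Mir199a-1, Mir7008, Mir7020 and Gm38671 lay in regions of the class. No count of hairpins over all regions is given, so their number cannot be called high or low.

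**Figure D1:**
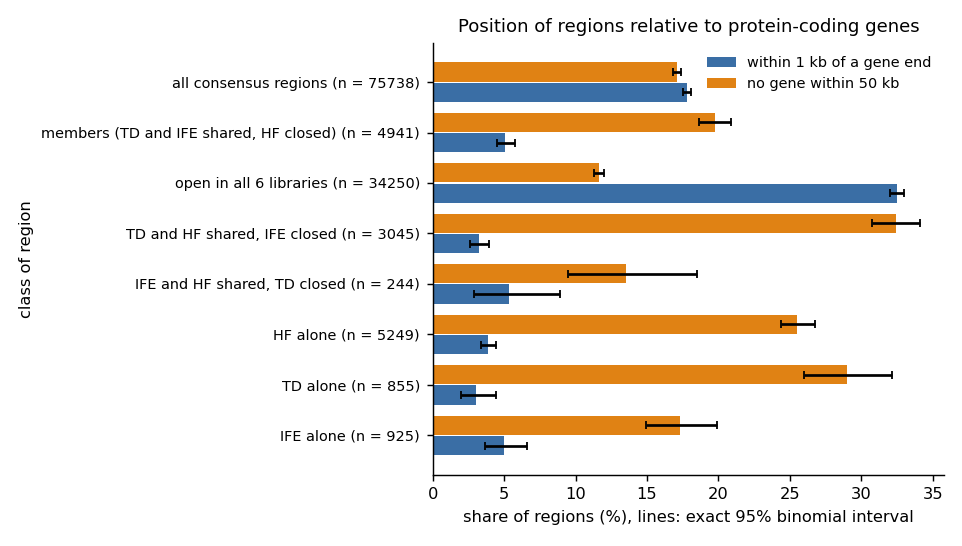
Horizontal bars give the share of regions in percent (x axis) for each class of consensus region (y axis, with the number of regions), blue within 1 kb of a gene end and orange with no protein-coding gene within 50 kb, and black lines are exact 95% binomial intervals. Members stand at 5.10% and 19.8%, and regions open in all 6 libraries at 32.5% and 11.6%.

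Peaks were shorter here than at regions open in all 6 libraries, as they were in other partly open classes. Median peak length in the class was 595 bp in TD replicate 1, 730 bp in TD replicate 2, 774 bp in IFE replicate 1 and 690 bp in IFE replicate 2. At regions open in all 6 libraries the medians were 1030, 1154, 1128 and 1083 bp in the same order. Regions shared by TD and HF had TD medians of 561 and 754 bp, close to those of the class, with HF medians of 968 and 900 bp, and HF-alone regions had 539 and 529 bp. The class reached 57.8 to 68.6% of the length at regions open in all 6 in each library, and 440 regions (8.91%) had peaks of at least 1000 bp in all 4 libraries. A short peak lies nearer the limit of detection than a long one, the read depth is unknown, and a region without an HF peak is one where none was called.

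The mean of the TD medians was 662.5 ± 95.5 bp (SD, n = 2) and that of the IFE medians 732 ± 59.4 bp (SD, n = 2). The difference of -69.5 bp was within the spread between libraries (exact permutation test, two-sided, p = 0.667), and with 2 libraries against 2 the smallest p possible is 0.333. It rested on the libraries: without TD replicate 1 it was -8.5 bp, without IFE replicate 1 it was -22.5 bp, and without TD replicate 2 it was -133.5 bp. Region by region, both IFE peaks were longer than both TD peaks at 1428 regions (28.9%) and both TD peaks were longer at 485 (9.82%). The same counts gave 22.5% and 12.6% over all regions with a peak in all 4 of these libraries, and 21.3% and 13.2% over regions open in all 6. Longer IFE peaks were thus the more frequent kind in all these regions, with a larger share in the class. The median log2 ratio of TD to IFE length was -0.11, and 80 regions (1.62%) differed by at least 2-fold, 49 with longer IFE and 31 with longer TD peaks.

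**Figure D2:**
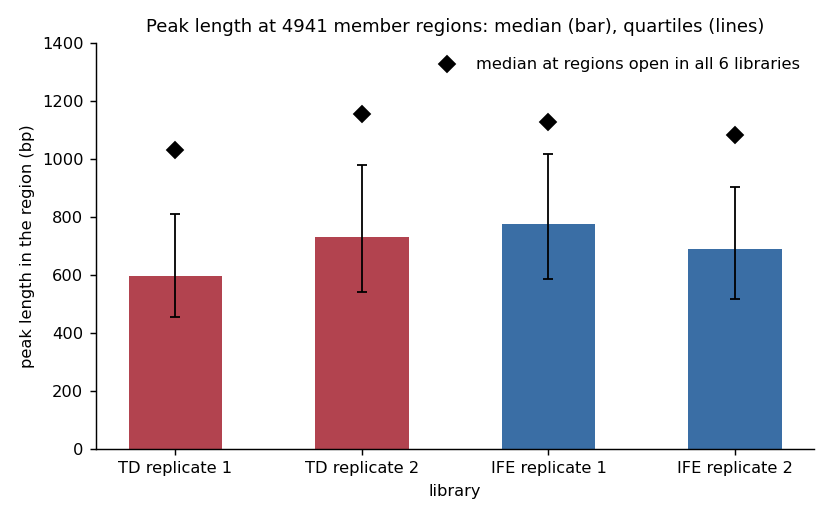
Bars give the median peak length in bp (y axis) at the 4941 regions in each TD and IFE library (x axis), black lines run from the first to the third quartile, and diamonds give the median at regions open in all 6 libraries. The bars stand at 595, 730, 774 and 690 bp, all below their diamonds at 1030 to 1154 bp.

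The regions with the strongest lean, chosen after their values were seen, show how unequal the shared peaks could be. At the water and glycerol channel gene Aqp3, peaks of the region chr4:41084881-41086900 were 363 and 318 bp in TD and 2020 and 819 bp in IFE, a log2 ratio of -2.06. At Bnc1, which encodes the basal keratinocyte zinc finger protein basonuclin, the region chr7:82029596-82031355 had 526 and 310 bp in TD and 1652 and 1644 bp in IFE. Mrrf, Dusp5 and Pitpnm3 had the other 3 strongest leans to IFE. In the other direction, the TGF-β effector gene Smad3 had a region, chr9:63711578-63713608, with 1984 and 1876 bp in TD and 911 and 578 bp in IFE, a log2 ratio of 1.37. Camk1d, St3gal1, Ctnna2 and Glis3 had the other strongest leans to TD. In these examples both TD libraries lay on one side of both IFE libraries, as the choice required.

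Distances to HF peaks were measured for the class alone, so they cannot be called near or far. The median distance from a region of the class to the nearest HF peak was 8218 bp in HF replicate 1, 7783 bp in HF replicate 2 and 7313 bp to either, and 59.4% had an HF peak within 10 kb. Where a library counted as open only if its peak covered at least 50% of the region, the median distance fell to 3144 bp. HF peaks of smaller cover could then lie inside a region and still counted for the distance. Just outside the rule were 914 regions with a further peak in HF replicate 1 alone and 1154 with one in HF replicate 2 alone. There the median HF peak was 416 bp in HF replicate 1 and 427 bp in HF replicate 2, and the TD and IFE medians ran from 628 to 823 bp. Another 1590 regions lacked a peak in TD replicate 1 alone, 265 in TD replicate 2 alone, 142 in IFE replicate 1 alone and 425 in IFE replicate 2 alone. TD replicate 1 had 50153 peaks, the fewest of the 6 libraries, and the others had 51124 to 59250.

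The class made up most of what TD and IFE each had without HF. Regions open in both TD and neither HF library numbered 6363 (8.4%), and 77.7% of them were in the class. Those open in both IFE and neither HF library numbered 7721 (10.2%), and 64.0% of them were in it. For comparison, 3045 regions were shared by TD and HF without IFE, 244 by IFE and HF without TD, and 5249 had peaks in HF alone. These counts share libraries and come from the same calls as the rule.

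Regions of the class came mostly singly. Counting along each chromosome through all consensus regions, 3765 had no neighbour of the class and 1176 (23.8%) stood in runs of at least 2, against 24.0% of HF-alone regions and 23.3% of regions shared by TD and HF. The longest run held 6 consecutive regions over 56.0 kb at Irf4 and Exoc2, chr13:30744545-30800556, where Exoc2 encodes a subunit of the exocyst, the complex that tethers secretory vesicles. These regions had TD and IFE peaks from 508 to 2047 bp. The widest, chr13:30792281-30794343 inside Exoc2, had 1708, 2040, 1915 and 2047 bp. All 3 regions assigned to Irf4 were in the class. A run of 5 regions lay on chromosome 7 at chr7:138605460-138644354 with no gene within 50 kb and no HF peak within 63785 bp. The other runs of 5 were at Skint6 and between Cntn1, a neuronal adhesion protein gene, and Pdzrn4, a PDZ and RING domain gene, at chr15:92354561-92387047. A run of 4, chr15:74082772-74450917, had no gene within 50 kb.

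Irf4 and the Skint genes are also known from immune cells or for their effect on them, and the markers of such cells were read in every library. Of 18 immune markers 17 were among the annotated protein-coding genes to which a region could be given, and 10 had any region. The number of their 27 regions with a peak was 21 and 22 in TD, 23 and 19 in IFE, and 18 and 19 in HF. Cd207, Cd3d, Cd3g, Trdc, Itgax, Csf1r, Ikzf1 and Lyz2 had none assigned in any library, and the marker outside the annotation could have none. Ptprc, the pan-leukocyte gene CD45, had 1 region with peaks in both TD libraries alone. Cd3e and Cd52 had 1 region each and both were in the class, and Thy1 and Itgam each had 1 of 8 and 1 of 3. Cd74, H2-Aa, H2-Ab1, H2-Eb1 and Spi1 had none in the class. Their regions open in all 6 libraries were 1 of 1, 2 of 2, 2 of 4, 2 of 3 and 1 of 3 in that order. The list as a whole thus had 4 of 27 regions in the class (14.8%, 4.19 to 33.7%), against 6.31% of all regions with a gene. The part of immune cells in the Irf4, Skint, Cd3e and Cd52 results was not tested.

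Skint genes, an immunoglobulin-like family of epidermis and thymus of which Skint1 is needed for the epidermal γδ T cells, sat in one cluster on chromosome 4. Of its 11 genes, 6 had regions of the class, against 17.7% of all genes with a region. The family had 11 of 52 regions in the class, against 6.31% of all regions with a gene. Of these 11, 5 were at Skint6, which was named for its run of 5. Open in all 6 libraries were 20 of the 52, against 45.2% of all consensus regions. Skint6 had 5 of 8 regions, and its 3 other regions had peaks 2 and 1 times in TD, 3 and 2 times in IFE, and 0 and 1 times in HF. Its start region chr4:113286176-113287506 had peaks of 864, 990, 1331 and 934 bp. At the Skint11 start, chr4:114162822-114163965, they were 997, 1032, 1118 and 1071 bp and the nearest HF peak was 128495 bp away. Skint7 and Skint10 also had their starts in the class. The latter did so by its window alone, with the start base 2 bp outside a region of only 498 bp. By contrast all 3 regions of Skint1 and both regions of Skint3 were open in all 6 libraries, and Skint2, Skint4 and Skint8 had none of the class. The pattern was thus uneven within the family. The 250 bases before the starts of Skint10 and Skint11 were identical at 70% of positions after alignment, and the other pairs at 58 to 62%. Where reads of such related genes were placed was not tested, and single Skint regions are uncertain to that extent. Except for Skint6, the Skint genes were chosen after their values were seen.

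By nearest gene within 50 kb, 3964 regions of the class fell to 2750 of the 15496 genes with any consensus region (17.7%). This was 6.31% of the 62802 regions with a gene. Of the 2750 genes, 2008 had a single region of the class and 44 had at least 5. Genes of the class had a median of 6 consensus regions against 2 for all genes, and large genes with many regions have more chances to hold one. A region is assigned here by distance alone, which says nothing of the gene it acts on.

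Slc24a3, which encodes a potassium-dependent sodium and calcium exchanger, had the most, 13 of its 36 regions (36.1%). The first lay 8004 bp outside the gene span and the other 12 inside it. In the 23 regions outside the class, peaks numbered 8 and 16 in TD, 19 and 15 in IFE, and 8 and 12 in HF. In those regions the HF counts were below both IFE counts and within the range of the TD counts. Leaving out the class takes away TD and IFE peaks and no HF peak, at this and every gene, so it lowers TD and IFE counts alone. Over all 36 regions the peaks numbered 21 and 29 in TD, 32 and 28 in IFE, and 8 and 12 in HF. The widest of the 13, chr2:145287104-145289214, had 405, 1964, 1176 and 1069 bp. The narrowest, chr2:145498144-145498656, had 475, 513, 475 and 365 bp.

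Il20ra, a receptor subunit for the interleukin-20 cytokines that act on keratinocytes, had 7 of 12 regions (58.3%). Peak numbers over its 5 regions outside the class were 2 and 2 in TD, 5 and 3 in IFE, and 1 and 2 in HF. Over all 12 regions they were 9 and 9 in TD, 12 and 10 in IFE, and 1 and 2 in HF. The intragenic region chr10:19739853-19741237 had 1182, 1242, 1348 and 1329 bp. The farthest, chr10:19803113-19804492, stood 43060 bp from the gene end with 558, 1212, 1380 and 1271 bp, so TD replicate 1 was short there.

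Pibf1, which encodes a centrosome protein, had 8 of 14 regions, and its neighbour Klf5, an epithelial zinc finger transcription factor, had 4 of 9. Together these made a stretch of 12 regions of the class on chromosome 14, in which Pibf1 had 4 peaks in each HF library and Klf5 also 4 in each. Inside Klf5 itself, the larger of 2 such regions, chr14:99306434-99307951, had 861, 1272, 1518 and 1212 bp, and an HF peak stood 373 bp away.

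Rora, a nuclear receptor gene, had 8 of 45 regions, and Camta1, a calmodulin-binding transcription factor gene, and Dlg2, a synaptic scaffold gene, had 9 of 41 and 9 of 43. Gna14, a G protein α subunit gene, and Rassf6, a Ras association domain gene, each had 6 of 11. All 6 in Gna14 were inside the gene, and the first, chr19:16447876-16449523, was even across libraries with 1635, 1647, 1594 and 1607 bp. Nsf, an ATPase that recycles vesicle fusion proteins, had 7 of 15 beside Wnt3, which had 3 of 5. Elmod1 had 6 of 13 and Abcc4, a nucleotide and drug transporter gene, 7 of 30. Arhgef3, Galnt18, Macrod2 and Rad51b had 7 each of 31, 35, 68 and 87 regions. Rad51b and Macrod2 thus stood near the background share of 6.31% (8.05 and 10.3%), whereas Il20ra, Pibf1, Gna14 and Rassf6 stood at 54.5 to 58.3%. These genes were chosen for their number of regions of the class, with ties ranked by share, so high shares here follow in part from that choice.

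**Figure D3:**
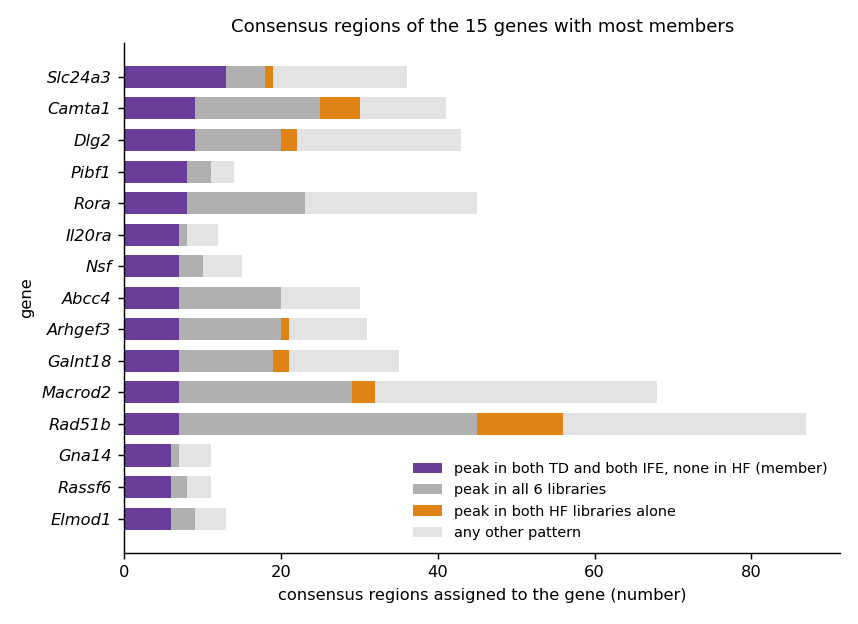
Stacked bars count the consensus regions assigned to each of the 15 genes with most regions of the class (y axis), in purple those of the class, in grey those open in all 6 libraries, in orange HF alone and in pale grey any other pattern. Slc24a3 has 13 of 36 and Il20ra 7 of 12, whereas Rad51b has 7 of 87.

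**Figure D4:**
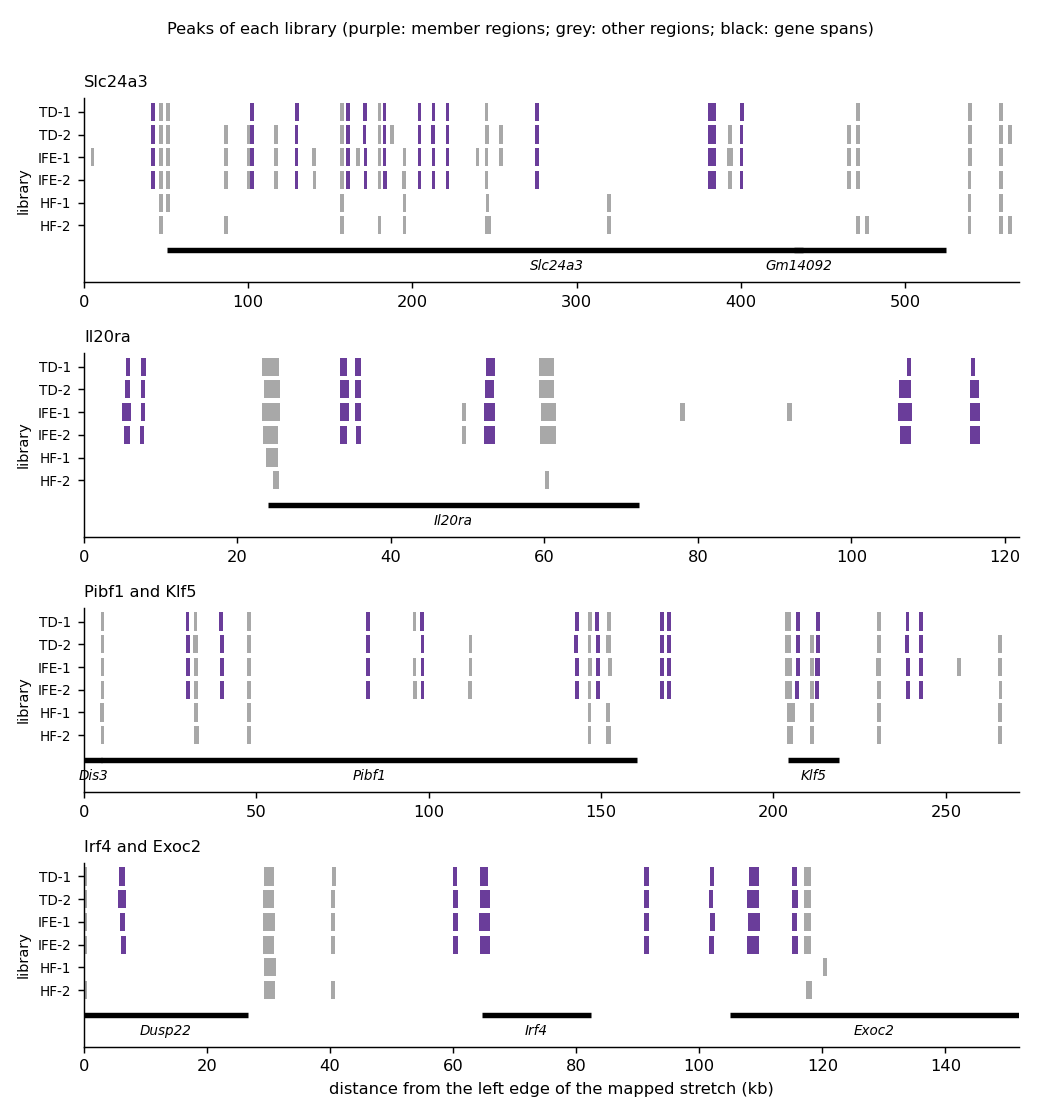
Each row of a map is a library and each block a called peak, purple in regions of the class and grey elsewhere, along the distance in kb from the left edge of the stretch (x axis), with gene spans in black. Short peaks are drawn at a fixed least width so that they can be seen. The maps of Slc24a3, Il20ra, Pibf1 with Klf5, and Irf4 with Exoc2 hold 13, 7, 12 and 7 purple positions.

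Read by function, 26 gene lists gave shares of their regions in the class that are set against 6.31% of all regions with a gene. The lists were chosen with earlier results of these data known and the shares follow from the rule, so they are descriptions without a test. Epidermal cytokine and receptor genes had 25 of 180 regions (13.9%, 95% interval 9.19 to 19.8%) at 12 of 26 genes (46.2%, against 17.7% of all genes). With a gene window of 10 kb they had 14 regions. Besides Il20ra the genes included Il33 with 3 of 11, Il34, a ligand that maintains Langerhans cells, with 3 of 12, and Tnfsf11, the gene of RANKL, with 2 of 6. Calcium exchanger and pump genes had 21 of 141 (14.9%, 9.46 to 21.9%), but 13 of the 21 were at Slc24a3. Others were at Atp2b4, a plasma membrane calcium pump gene, with 2 of 13, and at Casr, the calcium-sensing receptor gene by which keratinocytes read the calcium switch to differentiation, with 2 of 3. One Casr region, chr16:36489826-36490798, covered a gene end with 732, 708, 835 and 973 bp.

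Barrier transcription factor genes had 26 of 257 regions (10.1%, 6.72 to 14.5%) at 11 of 23 genes (47.8%, against 17.7% of all genes). Grhl3, a grainyhead-like factor of late differentiation, had 3 of 15, and its 12 other regions had peaks 9 and 10 times in TD, 12 and 10 times in IFE, and 9 and 8 times in HF. Grhl2 had 3 of 20, Klf5 4 of 9 and Rora 8 of 45. Transglutaminase and barrier lipid genes had 15 of 168 (8.93%, 5.08 to 14.3%), 6 of them at Tgm3, which crosslinks cornified envelope proteins. Tgm3 had 6 regions of the class and 6 open in all 6 libraries among 14. Its region chr2:129979958-129981491, 6303 bp from the gene, had 1444, 1412, 1529 and 1471 bp, and that 923 bp from the gene end had 913, 951, 877 and 774 bp. Alox12b, a lipoxygenase of the lipid barrier, had 1 of 2, and Elovl4 and Cyp4f39, which act on very long fatty acids, 1 of 6 and 1 of 4. Suprabasal and cornified envelope genes stood at 7.14% (8 of 112), with Krt1, Cdsn and Evpl at 1 region each of 3, 4 and 4. Basal IFE genes stood at 6.70% (15 of 224), near the background, although 8 of 19 genes (42.1%) had a region of the class. A high share of genes thus also occurred at a background share of regions.

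By share of regions, adhesion and signalling lists were close to the background. Their shares of genes with a region of the class were mostly above the 17.7% of all genes. These were 45% for desmosome and cadherin genes, 34.5% for integrin, laminin and hemidesmosome genes and 34.3% for BMP and TGF-β genes. EGF and FGF family genes stood at 29.6%, Wnt pathway genes at 27.9% and Notch genes at 17.4%. Integrin, laminin and hemidesmosome genes had 19 of 280 regions (6.79%), among them 3 of 7 at Lama1, 3 of 18 at Lama3 and 2 of 10 at Itga2. Desmosome and cadherin genes had 15 of 179 (8.38%), with Cdh4 at 4 of 14 and the desmoglein gene Dsg1c at 3 of 7. BMP and TGF-β genes had 22 of 269 (8.18%). Smad2, a receptor-activated SMAD gene, had 4 of 12, Tgfb2 3 of 17, Smad3 3 of 18, Bmpr1b 3 of 11, and the BMP family ligand gene Bmp3 2 of 3. The Bmp3 region chr5:98844100-98847255 was among the 5 widest of the class, with 2729, 3042, 3140 and 2848 bp and no HF peak within 355216 bp. The other 4 of the widest were at the phospholipase gene Pla2g4e (2018, 3140, 2912 and 2086 bp), at the adaptor protein gene Gab1, and at chr11:63749464-63752833 and chr12:77714962-77718147, both without a gene within 50 kb.

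Wnt pathway genes had 24 of 405 (5.93%). The ligand genes Wnt3, Wnt5a and Wnt7a had 3 of 5, 3 of 6 and 3 of 8, and Dkk3 had 2 of 12. EGF and FGF family genes had 13 of 239 (5.44%), or 21 regions without TD replicate 1, and 6 of the 13 were at Nrg1, a ligand gene of ERBB receptors with 20 regions. Ereg, the epiregulin gene, had 1 of 8, at a gene end, with 912, 1821, 1576 and 1837 bp. Retinoid and nuclear receptor genes had 19 of 208 (9.13%), 8 of them at Rora, with Aldh1a3 at 2 of 6 and Ppara at 2 of 10. AP-1 and immediate early genes had 4 of 104 (3.85%, 1.06 to 9.56%), at Myc (2), Fos and Egr3, and 3 of these 17 genes (17.6%) had one, against 17.7% of all genes. Notch genes had 5 of 154 (3.25%), or 8 regions without HF replicate 1. The p63 and AP-2 genes had 3 of 83 (3.61%), or 7 without HF replicate 2 and 5 without TD replicate 1. Trp63, the master regulator gene of stratified epithelium, had 1 of 33, and 15 of its regions were open in all 6 libraries.

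At the other end, genes of follicle stem cells and the outer root sheath had 7 of 529 regions in the class (1.32%, 0.534 to 2.71%). These were at 5 of 30 genes (16.7%, against 17.7% of all genes). The list had 63 HF-alone regions (11.9%), against 6.22% of all regions with a gene. HF-alone shares were higher for fibroblast markers (15.9%) and for endothelial and mural markers (12.9%). The 7 became 14 without TD replicate 1, 12 without HF replicate 1 and 11 without HF replicate 2. In the same order the whole class went from 4941 to 6534, 5863 and 6101 regions. Nfatc1 had 2 of 27, Tcf7l2 2 of 36, Gas1 1 of 7 and Nfia 1 of 41. Infundibulum, isthmus and sebaceous genes had 4 of 108 (3.70%), 2 of them at the fatty acid binding protein gene Fabp5. Touch dome keratinocyte genes had 6 of 131 (4.58%), or 10 regions without HF replicate 1, including Cadm1 with 2 of 37 and Lrig1 with 1 of 22. Merkel cell markers had 0 of 40 regions at 15 genes, which allows a share of up to 8.81% by the exact interval, and 1 region without HF replicate 2. Peaks at those 40 regions numbered 19 and 28 in TD, 21 and 16 in IFE, and 26 and 34 in HF. The melanocyte list had 1 of 36 (2 without IFE replicate 1, IFE replicate 2 or HF replicate 1), at Sox10, which is also on the Schwann cell list (2 of 34, with Erbb3). Fibroblast markers had 2 of 44, at Dpt and Prrx1, and endothelial and mural markers 4 of 70, at Acta2, Flt1 and Vwf (7 without TD replicate 1).

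**Figure D5:**
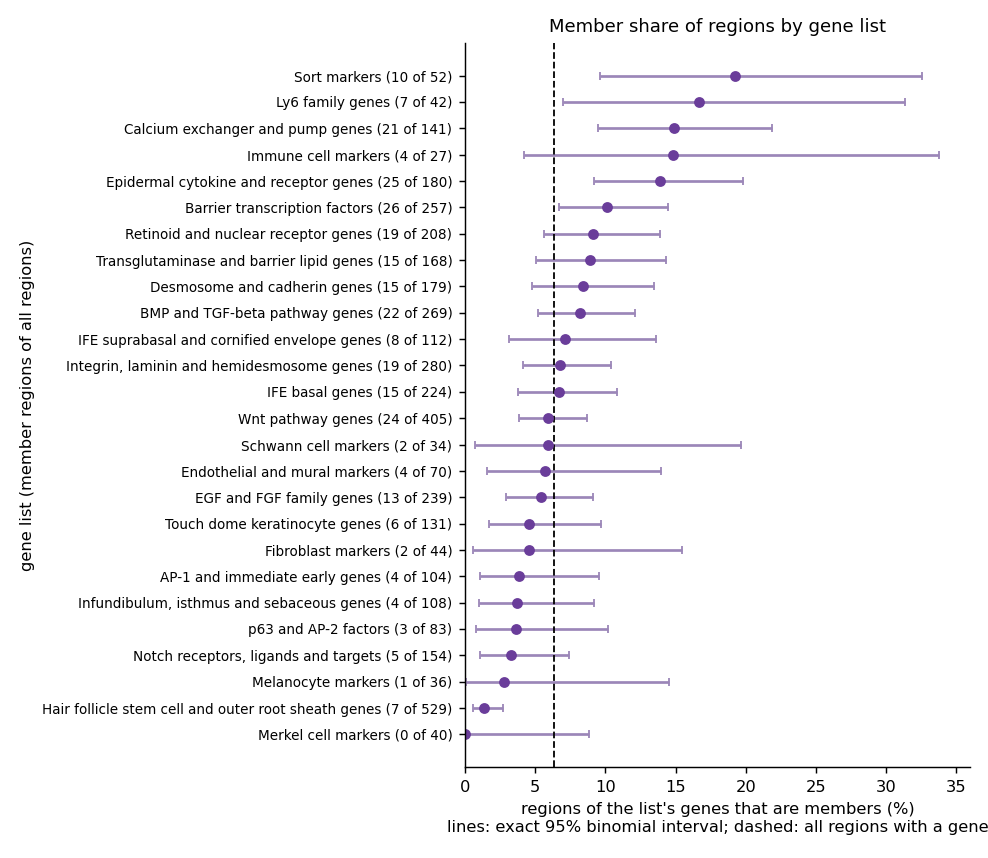
Points give, with all 6 libraries, the percent of a list's consensus regions that belong to the class (x axis) for 26 gene lists (y axis, with counts), lines are exact 95% binomial intervals, and the dashed line marks 6.31% of all regions with a gene. Hair follicle stem cell genes stand at 1.32% and epidermal cytokine genes at 13.9%.

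The sort markers are not independent of the gate. Ly6a, the gene of SCA1, had 2 of 5 regions in the class, one of which, chr15:74995454-74997869, lay on the gene with 1518, 1641, 2372 and 1940 bp. Both IFE peaks there were longer than both TD peaks. An HF peak stood 950 bp from that region, and 2 of the 5 Ly6a regions had peaks in both HF libraries. The wider Ly6 family, surface proteins of which many lie beside Ly6a on chromosome 15, had 7 of 42 regions (16.7%, 6.97 to 31.4%). They were at 6 of 15 genes (40%, against 17.7% of all genes). These included Ly6d, Slurp2 and Gml2 at 1 of 2 each, and how reads of related copies were placed was not tested. Itga6, the gene of the integrin on which all 3 populations were sorted, had 5 of 23. Its 18 regions outside the class had peaks 9 and 9 times in TD, 15 and 10 times in IFE, and 9 and 9 times in HF. All 23 had them 14 and 14 times in TD, 20 and 15 times in IFE, and 9 and 9 times in HF. Tnc had 3 of 17, and its 14 other regions were all open in both TD libraries, 8 in each IFE library, and 13 and 12 in HF. Epcam, positive in every gate, had 0 of 7 regions in the class and 6 open in all 6 libraries.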

How the data were processed

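The deposited files are ATAC-seq peak lists, 1 per library, with 4 columns (chromosome, start, end, name) and no score, signal or count. The deposited values are thus positions in bp on mm10. Tools named in the submitters' processing notes are MACS2 2.2.7.1, Bowtie2 2.4.5, SAMtools 1.9 and Trim Galore 0.6.7. How they were set, with any transposase shift, read filter or calling threshold, is not given in the sources used here, and read depth is unknown. Libraries had 50153 to 59250 peaks, and a deeper library can gain weak peaks. Groups and replicate numbers came from the labels. Per the labels' protocols each library came from 50000 sorted cells after trypsin digestion.

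Overlap by 1 bp or more joined peaks into regions, and each region was given to the nearest of 21900 RefSeq protein-coding gene spans (GRCm38.p6) within 50 kb. No genome was used, so exons, introns and UTRs are not given, and sequences come from RefSeq promoter windows. Tools were Python 3.11.15, pandas 2.3.3, numpy 2.4.6, scipy 1.17.1, Biopython 1.88 and matplotlib 3.10.9. Merging and library states were tested on simulated peaks against base-by-base counts. Gene assignment was tested at the midpoints of a sample of annotated genes, so assignment outside gene spans was not tested. The planned rule named the 15 genes with most regions of the class, up to 4 genes per list, the sort markers, genes of the 5 longest runs and 5 widest regions, and listed genes with a region within 1 kb of a gene end. The class, the 26 gene lists and the motifs were chosen with earlier results of these data known. Replicate numbers are shared by the groups, but nothing says that they mark a shared animal or day. Other settings were each library left out, merging within 100 bp, a peak cover of at least 50%, equal numbers of widest peaks, autosomes alone, gene windows of 10 and 100 kb, 2 kb gene ends and a replicate block.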

Additional observations from a re-analysis of the deposited data

How the results depend on the processing

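Leaving out each library gave 5120 to 6534 regions in the class (4941 with all 6 libraries) and 2836 to 3361 genes (2750). Each count rose by less than 1.5 times. Leaving out a library takes away a condition of the rule, so rises were favoured in advance and are no sign of stability. The same holds for the counts of the gene lists. The regions of the 26 lists together went from 240 to between 255 and 309. The share within 1 kb of a gene end ranged from 4.73 to 5.99% with a library left out and was 5.81% under a cover of at least 50% and 8.18% within 2 kb of a gene end. These values passed the counting interval in part, and all were below the 17.8% of all regions. The share inside a gene span stayed within 49.6 to 50.7%. The median distance to the nearest HF peak ranged from 6967.5 to 8351 bp with a library left out and was 3144 bp under the 50% cover. Under that setting an HF peak of smaller cover did not exclude a region but still counted for the distance, even inside the region. The TD minus IFE difference in median peak length ranged from -133.5 to -8.5 bp with a library left out and kept its sign in every setting. With the replicate block it was -69.5 bp with an exact permutation p of 1, where 4 arrangements exist. Same-numbered TD and IFE libraries did not deviate together over the class (correlation 0.0046 of log2 lengths over 4941 regions). Over the 34250 regions open in all 6 libraries the correlation was 0.054 for TD with IFE, 0.052 for TD with HF and 0.13 for IFE with HF, so not every pair passed 0.1 and the libraries were treated as sharing only a number. Of the 26 lists, the count moved by more than 1.5 times in 8 with a 10 kb gene window, 4 with 100 kb, 4 without TD replicate 1, 4 without HF replicate 1 and 3 without HF replicate 2. Merging within 100 bp gave 4937 regions, equal numbers of widest peaks 5167 and autosomes alone 4834. Unknown depth limits every absence of a peak.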
